A study of Caenorhabditis elegans with 8 samples.

Results

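Small RNAs against 6 genes linked to germ granules and to Argonaute proteins were followed in wild-type and rde-12 animals of the nematode Caenorhabditis elegans. Their counts were taken from the table by gene identifier. The set was put together with earlier results of these data known. They are glh-1 (T21G5.3), glh-2 (C55B7.1), pgl-3 (C18G1.4), mex-6 (AH6.5), prg-2 (C01G5.2) and sago-2 (F56A6.1). All 6 were measured, among 1937 genes with counts in the deposited gene table.

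Animals of strain N2, the laboratory wild type, were compared with rde-12(hj41) mutants, which carry allele hj41 of the gene for the DEAD-box helicase RDE-12. Both genotypes ate OP50, the usual Escherichia coli food, for 50 h at 20 °C from synchronised first-stage larvae and were collected as young adults. Each library came from a pooled population of whole animals. Each genotype gave 2 libraries, named as biological samples in the labels. Below, N2 is called wild type and rde-12(hj41) the mutant. No trigger for RNA interference was fed. The series also holds 4 libraries from animals fed a sel-1 trigger, whose counts over these 6 genes were not analysed here.

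Germ granules are RNA-rich bodies that sit against the nuclei of germ cells, and transcripts pass through them on their way to the cytoplasm. Small RNAs are made there on germline transcripts by RNA-dependent RNA polymerases, and Argonaute proteins carry these small RNAs to matching RNAs. Some worm Argonautes use them to silence their targets, and others to license expression in the germline. Genes that build this machinery are transcribed in the germline as well, and some of them are themselves templates for small RNAs. RDE-12 is known to act with Argonautes in making secondary small RNAs during RNA interference.

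Per the labels, RNA of 20 to 26 nt was sequenced after treatment with TAP, which opens triphosphate ends to ligation. Which strand was counted is not given in the labels or file headers, so a count stands for small RNAs assigned to a gene and may mix sense and antisense. Counts over the 1937 genes summed to between 4270098 and 5563151 per library. Levels below are CPM, that is counts relative to the sum over the tested genes of a library, scaled with TMM factors, and describe small RNAs, not the mRNA or protein of the gene. Replicates of a genotype differed by more than sampling noise, with a chi-square per degree of freedom of 3.50 in wild type and 4.13 in the mutant. In whole animals, fewer cells of a type and less small RNA per cell cannot be told apart. Counts for rde-12 itself were not analysed here, so the mutation could not be checked from them.

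Each of the 6 genes drew at least 384 small RNA counts in every library, and none of the 6 passed the test for a difference between mutant and wild type, whereas 27.7% of the 1931 tested genes did. That share is made of 13.9% that fell and 13.8% that rose in the mutant. With the first mutant library left out, 175 genes fell and 165 rose, against 268 and 267. The test was edgeR's quasi-likelihood test with Benjamini-Hochberg adjustment over all tested genes and a threshold of 0.05. Its unadjusted p was under 0.05 for 1 of the 6 genes, glh-1, and for 765 of the 1931 tested genes. The 95% intervals of the change together ran from 0.823-fold to 1.21-fold. With DESeq2 the number of the 6 called was also 0. It was 1 when edgeR used library totals or upper-quartile factors, in each case glh-1. Over all genes 364 were called with DESeq2, 554 with library totals and 572 with upper-quartile factors, against 535 in the test above. For the 6 genes, log2 changes were above 0 for 5 and below 0 for 1, with a median of 0.062 against −0.020 over all tested genes.

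**Figure D1:**
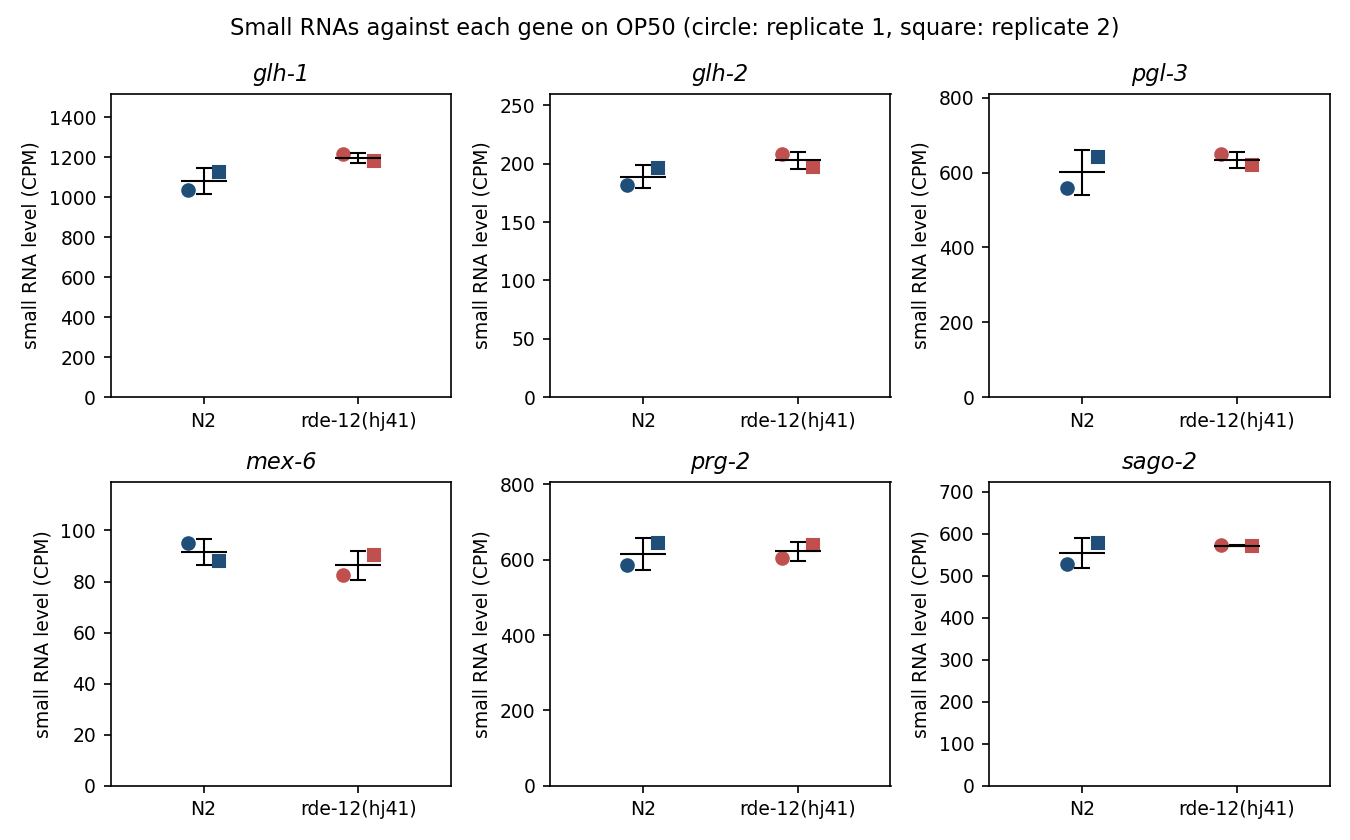
Level of small RNAs (CPM, linear axis from 0) against each of the 6 genes in the 4 OP50 libraries. Circles are replicate 1 and squares replicate 2, and bars show mean ± SD of 2 libraries. The genotypes are separate for glh-1 and glh-2 and overlap for the other 4 genes, while they are separate in 64.2% of all tested genes.

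The first 2 genes encode germ granule helicases. GLH-1 is a Vasa-like DEAD-box helicase and a constant component of germ granules, and GLH-2 is its close relative. Both are annotated as protein-coding with 1 transcript each, of 7 exons in glh-1 and 9 in glh-2. Small RNAs against glh-1 gave 4360 and 4920 counts in the N2 libraries and 6697 and 5282 in the rde-12 libraries. On the CPM scale these are 1035 and 1127 in wild type and 1216 and 1180 in the mutant. Both rde-12 libraries lay above both N2 libraries. The mean level was 1081 ± 65.4 CPM (SD, n = 2) in wild type and 1198 ± 25.3 in the mutant. The log2 change was 0.15 ± 0.0591 (SE), with a 95% interval from 0.022 to 0.27 (edgeR unadjusted p = 0.0243, adjusted p = 0.0759). Of all tested genes, 52.6% had a smaller change in either direction.

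For glh-2 the counts were 766 and 855 in wild type and 1146 and 884 in the mutant. Its levels were 182 and 196 CPM in wild type and 208 and 197 in the mutant. Here too the rde-12 libraries lay above those of N2, but the second N2 library and the second rde-12 library were nearly level. The mean was 189 ± 9.97 CPM in wild type and 203 ± 7.47 in the mutant (SD, n = 2 each). The log2 change of 0.10 ± 0.0653 (SE) had a 95% interval from −0.036 to 0.24, and the gene was not called (adjusted p = 0.260 in edgeR). The libraries of the genotypes were separate in 2 of the 6 genes, these helicases, and in 64.2% of all tested genes.

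A ratio taken within a library does not depend on depth. There were 5.69 and 5.75 glh-1 counts for each glh-2 count in the N2 libraries, and 5.84 and 5.98 in the rde-12 libraries. Exact 95% counting intervals of these ratios spanned 5.27 to 6.15 and 5.35 to 6.195 for wild type, and 5.49 to 6.23 and 5.56 to 6.42 for the mutant, so all 4 overlap. The mean ratio was 5.72 ± 0.0442 in wild type and 5.91 ± 0.0928 in the mutant (SD, n = 2 each). The two-sided exact permutation p was 0.333, which is the smallest value that 2 libraries against 2 can give. These intervals hold counting error alone and leave out variation between replicates. They may also be too narrow, because reads that carry no molecular identifier need not be independent molecules. The related helicase genes glh-3 and glh-4 were not among the 1937 genes with counts. Reads that match both glh-1 and glh-2 may have been split between them in a way the labels do not state, which leaves the separate values uncertain.

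PGL-3 is an RNA-binding scaffold protein whose self-association builds the germ granule. Its gene pgl-3 has 2 annotated transcripts, and its row was repeated in the deposited table with identical values and was counted once. It gave 2349 and 2804 counts in wild type and 3574 and 2771 in the mutant. Levels were 558 and 643 CPM in wild type and 649 and 619 in the mutant. The lower N2 library stood apart from the other 3, and the genotypes overlapped. Means were 600.1 ± 60.1 CPM in wild type and 634 ± 21.1 in the mutant (SD, n = 2 each). Its log2 change of 0.079 ± 0.0677 (SE) had a 95% interval from −0.065 to 0.22 (edgeR adjusted p = 0.420). Without N2 replicate 1 the log2 change was −0.0088 (edgeR adjusted p = 0.948). Next to pgl-3 in the annotation lies hil-4 (C18G1.5), a histone H1 gene that was also measured. Its levels were 406 and 470.0 CPM in wild type and 451 and 443 in the mutant, and it was not called (log2 change 0.030, adjusted p = 0.785 in edgeR). As with pgl-3, N2 replicate 1 was the lowest library.

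MEX-6 is a CCCH zinc-finger protein that works with MEX-5 in the early embryo, where both control the segregation of maternal proteins and germ granules to the germline side. The gene mex-6 had the fewest small RNAs of the 6, with 401 and 384 counts in wild type and 454 and 405 in the mutant. Levels were 95.2 and 88.0 CPM in wild type and 82.4 and 90.5 in the mutant. The lowest and the highest library were the first of rde-12 and the first of N2, and the other 2 overlapped between genotypes. Mean levels were 91.6 ± 5.09 CPM in wild type and 86.4 ± 5.70 in the mutant (SD, n = 2 each). The log2 change of −0.086 ± 0.0915 (SE), the only one of the 6 below 0, had the widest of the 6 intervals, from −0.28 to 0.11 (edgeR adjusted p = 0.523). The size of this value rested on single libraries: it was −0.0084 when rde-12 replicate 1 was dropped and −0.018 when N2 replicate 1 was dropped. It was −0.14 with N2 replicate 2 left out and −0.15 with rde-12 replicate 2 left out. The paralogue mex-5 was not among the 1937 genes with counts.

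The remaining 2 genes belong to the Argonaute family. PRG-2 is the relative of PRG-1, the Piwi protein that binds worm piRNAs. The RefSeq and Ensembl annotations of assembly WBcel235 both list prg-2 as a pseudogene, 1 of 87 pseudogenes in the table. It gave 2469 and 2816 counts in wild type and 3331 and 2866 in the mutant, close to the counts of pgl-3. Levels were 586 and 645 CPM in wild type and 605 and 640.2 in the mutant. Both rde-12 libraries lay between the N2 libraries. The means of 616 ± 41.9 and 622 ± 25.1 CPM (SD, n = 2 each) gave the smallest change of the 6, a log2 change of 0.015 ± 0.0627 (SE) with a 95% interval from −0.12 to 0.15 (edgeR adjusted p = 0.883). Its sign turned when N2 replicate 1 (−0.043) or rde-12 replicate 2 (−0.026) was dropped. Of all tested genes, 6.11% had a smaller change. How reads shared by prg-2 and prg-1 were assigned is not stated in the labels, and prg-1 was not among the 1937 genes with counts.

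SAGO-2 is an Argonaute of the worm-specific group that binds secondary small RNAs in RNA interference. The gene sago-2 gave 2228 and 2524 counts in wild type and 3152 and 2554 in the mutant. Levels were 529 and 578 CPM in wild type and 572 and 571 in the mutant. The rde-12 libraries were nearly equal and lay between those of N2. Means were 554 ± 35.0 CPM in wild type and 571 ± 1.18 in the mutant (SD, n = 2 each). Its log2 change of 0.045 ± 0.0606 (SE) had a 95% interval from −0.084 to 0.17 (edgeR adjusted p = 0.622). Without N2 replicate 1 it was −0.0074 (edgeR adjusted p = 0.956). In the annotation the whole of sago-2, 3331 bases, lies inside eme-1 (F56A6.4) on the opposite strand, and 0 bases are exonic in both. None of the other 5 genes overlaps an annotated gene. Because the counted strand is not stated, small RNAs from eme-1 introns could not be told apart from those of sago-2.

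Levels were compared between genes per kilobase of annotated exon. The exonic lengths, from 1895 nt in mex-6 to 3218 nt in glh-2, came from the Ensembl annotation of assembly WBcel235. The authors' own build is not stated in the labels or file headers. In N2 the order of these densities was glh-1, pgl-3, prg-2, sago-2, glh-2, mex-6. The density of glh-1 was 390.5 ± 23.6 CPM per kb, above all libraries of the next gene. Both pgl-3 (263 ± 26.3 CPM per kb) and prg-2 (244 ± 16.6) overlapped and did not differ beyond their spread in N2. Below them came sago-2 with 189 ± 11.9 CPM per kb (SD, n = 2 each). A wide gap separated these 4 genes from glh-2 and mex-6, at 58.7 ± 3.10 and 48.3 ± 2.68 CPM per kb. Over the 1896 tested genes with a length, the median density in N2 was 94.0 CPM per kb. The first 4 genes lay above that median and the last 2 below it. Of these 1896 genes, 80.9% were lower than glh-1 and 28.1% lower than mex-6. How genes were selected for counting is not stated, so these are positions among the counted genes alone. From mex-6 to glh-1 the density rose 8.08-fold. Per length, glh-1 held 6.65 ± 0.0513 times the small RNA level of glh-2 in N2 and 6.87 ± 0.108 times in rde-12.

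**Figure D2:**
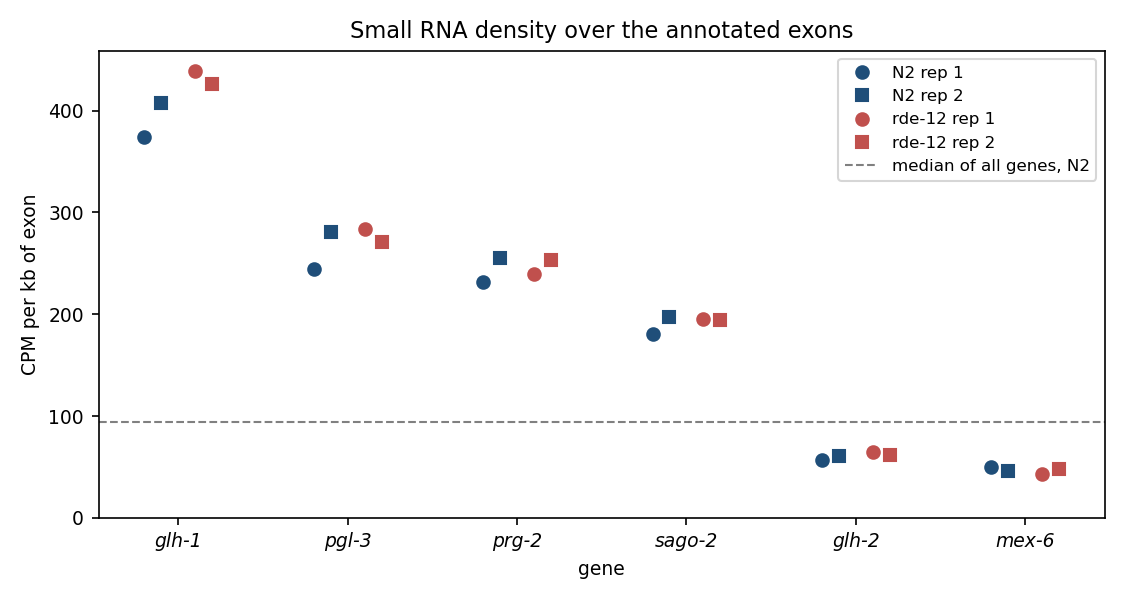
Small RNA density (CPM per kb of annotated exon, linear axis from 0) of the 6 genes in each OP50 library, ordered by the N2 mean. Blue points are N2 and red points rde-12, and the dashed line is the N2 median of 94.0 CPM per kb over all tested genes with a length; 4 genes lie above it and 2 below it.

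The order of the 6 densities was the same in rde-12 animals. There glh-1 stood at 433 ± 9.14 CPM per kb, pgl-3 at 277 ± 9.22 and prg-2 at 246 ± 9.95. The libraries of pgl-3 and prg-2 no longer overlapped. Lower down were sago-2 at 195 ± 0.401, glh-2 at 63.0 ± 2.32 and mex-6 at 45.6 ± 3.01 CPM per kb (SD, n = 2 each). By raw count, glh-1 ranked between 181st and 223rd of the 1937 genes over the 4 libraries, and mex-6 between 1247th and 1297th.

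Together the 6 genes took 0.294% and 0.326% of the counts summed over the 1937 genes in the N2 libraries. The shares were 0.330% and 0.339% in the rde-12 libraries. The mean share was 0.310% ± 0.0226 for wild type and 0.334% ± 0.00641 for the mutant (SD, n = 2 each). The first N2 library was low and the other 3 were close to each other.

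That library was the lowest of the 4 for 5 of the 6 genes, all but mex-6. The second N2 library exceeded the first 1.15-fold for pgl-3, 1.10-fold for prg-2, 1.09-fold for sago-2, 1.09-fold for glh-1 and 1.08-fold for glh-2. For 4 of these the exact 95% counting interval of the ratio lay above 1. The exception was glh-2 (0.976 to 1.19), which had fewer counts than these 4. Such intervals hold counting error alone, and over all genes the N2 replicates differed by more than that (chi-square per degree of freedom 3.50). Over all tested genes the median of this ratio was 1.01, with quartiles of 0.957 and 1.06. In rde-12 the ratio of the second library to the first ran from 0.949 in glh-2 to 1.10 in mex-6, and its interval left out 1 for prg-2 alone. With N2 replicate 1 left out, the log2 change was 0.098 for glh-1 (edgeR adjusted p = 0.357) and 0.061 for glh-2. Those of pgl-3, prg-2 and sago-2 turned slightly below 0.

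**Figure D3:**
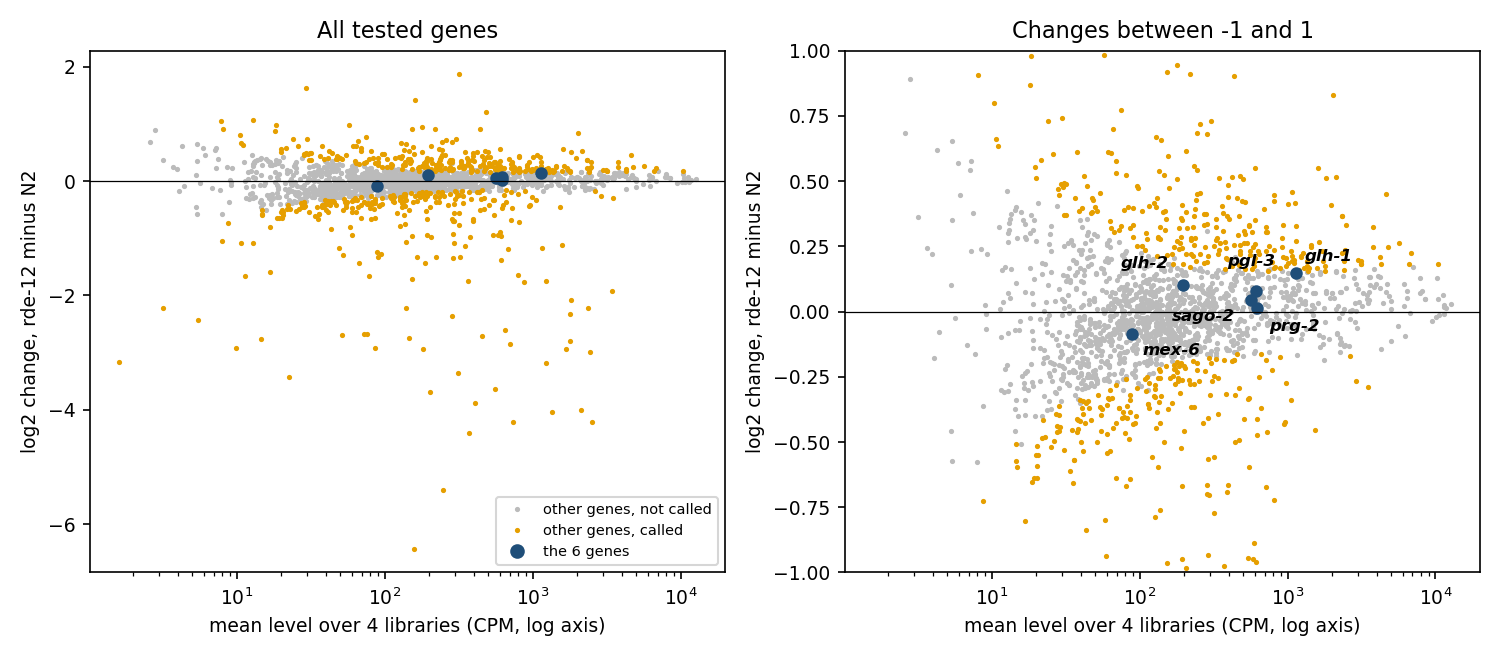
Mean small RNA level over the 4 libraries (CPM, log axis) against the log2 change from N2 to rde-12 for all 1931 tested genes, in full on the left and between −1 and 1 on the right. Orange genes passed the test, grey ones did not, and the 6 genes in blue lie between −0.086 and 0.15.

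The genes most like each member were found by the distance between levels on the log2 CPM scale over the 4 libraries, taking the 2 nearest of all tested genes. For glh-1 these were anmt-1 (B0303.2; distance 0.090) and znf-782 (Y55F3AM.14; 0.10), with log2 changes of 0.13 and 0.10. Nearest to glh-2 were gtap-1 (ZK1248.13; 0.060) and taf-3 (C11G6.1; 0.069). The gene chkr-2 (T08D2.7) was nearest to both pgl-3 (0.074) and prg-2 (0.063), followed by cin-4 (ZK1127.7; 0.10) for pgl-3 and by T05H10.1 (0.091) for prg-2. For mex-6 they were nobh-1 (Y54E10BR.4; 0.089) and EEED8.14 (0.10), and for sago-2 Y37B11A.3 (0.058) and T19H12.2 (0.095). Since likeness was taken over both genotypes, similar changes in these 11 genes follow from how they were picked. No member was among the nearest genes of another.

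Other genes of the same pathways were taken from 4 lists written from general knowledge, but with earlier results of these data known. The lists hold germ granule components, maternal RNA and polarity regulators, Argonautes, and other RNA interference factors. Of these, 16 genes beyond the 6 were measured, and 1 of the 16 was called, a fall, where 27.7% of all tested genes were called, 13.9% as falls and 13.8% as rises. In the germ granule list 7 of 34 genes were measured, glh-1, glh-2 and pgl-3 among them. Of the 7, 0 fell and 0 rose, and 0 were called by DESeq2. With library totals 1 of them rose, glh-1, and with upper-quartile factors 2, glh-1 included. Dropping N2 replicate 2 gave 1 rise, as did dropping rde-12 replicate 2. An unadjusted p under 0.05 was found for 2 of the 7, glh-1 and meg-4, and for 765 of the 1931 tested genes. The Argonaute list had 6 of 23 genes measured, prg-2 and sago-2 among them. Of these Argonaute genes 1 fell and 0 rose, and 1 fall among 6 is near the share over all tested genes. The list of RNA interference factors had 7 of 41 measured, with 0 falls and 0 rises by edgeR, 0 by DESeq2 and 0 at an unadjusted p under 0.05. Of the maternal list 2 of 21 were measured, mex-6 and par-2, with 0 calls by either tool and 0 at an unadjusted p under 0.05. Median log2 changes were 0.10, 0.017, −0.023 and −0.014 in these lists in that order, beside −0.020 over all tested genes.

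Among germ granule components, meg-4, which encodes an intrinsically disordered granule protein, had levels of 306 and 319 CPM in wild type and 286 and 273 in the mutant. Its log2 change was −0.16 ± 0.0606 (SE; edgeR unadjusted p = 0.0172, adjusted p = 0.0591), opposite in sign to that of glh-1. The gene deps-1, whose protein is needed for germ granule assembly, had 397 and 439 CPM in wild type and 450 and 462 in the mutant (log2 change 0.12 ± 0.0632, edgeR adjusted p = 0.158). Libraries of the genotypes were separate in both genes, and neither passed the test. For simr-1, a Tudor-domain protein of small RNA foci, means were 754 ± 64.8 CPM in wild type and 730 ± 11.5 in the mutant (log2 change −0.049). The Y-box gene cey-4 had few small RNAs, 11.7 ± 0.699 CPM in wild type and 14.9 ± 0.0574 in the mutant, and a wide 95% interval from −0.026 to 0.74 on the log2 scale. Against par-2, a polarity gene of the early embryo, levels were far higher, 4758 ± 80.4 CPM in wild type and 4953 ± 74.7 in the mutant (SD, n = 2 each; log2 change 0.058, edgeR adjusted p = 0.496).

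Among Argonautes, alg-4 was the gene called. ALG-4 and its close relative ALG-3 act in spermatogenesis. Small RNAs against alg-4 stood at 74.5 and 64.2 CPM in wild type and at 53.4 and 56.7 in the mutant, with no overlap. The log2 change was −0.33 ± 0.106 (SE), with a 95% interval from −0.56 to −0.11 (edgeR adjusted p = 0.0282). This call was kept in 5 of 11 alternative settings and lost in 6. With DESeq2 the log2 change was −0.32 (adjusted p = 0.180), with library totals −0.31 (edgeR adjusted p = 0.0618) and with upper-quartile factors −0.28 (0.0707). With a replicate block it was −0.33 (0.0730). Dropping N2 replicate 1 gave −0.21 (0.311), and dropping rde-12 replicate 1 gave −0.28 (0.147). For alg-3 the libraries overlapped, at 48.0 and 57.7 CPM in wild type and 43.4 and 54.3 in the mutant (log2 change −0.13, edgeR adjusted p = 0.511). The sequences of alg-3 and alg-4 are alike, so their separate values are uncertain. Beside these, of 25 measured genes in a list with sperm names, also chosen with earlier results known, 24 had a log2 change below 0, 6 fell and 0 rose, with a median of −0.25. Over all 1931 tested genes 1034 were below 0, 268 fell and 267 rose, with a median of −0.020. In the sperm list 3 fell without N2 replicate 1 or with DESeq2. The part of sperm-related small RNAs in the alg-4 value was not tested.

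Levels of ppw-1, which encodes an Argonaute needed for germline RNA interference and related to SAGO-2, were 2172 ± 18.7 CPM in wild type and 2202 ± 71.4 in the mutant (SD, n = 2 each; log2 change 0.020 ± 0.0563, edgeR adjusted p = 0.820). The gene wago-2, listed as a pseudogene like prg-2, had 735 ± 38.9 CPM in wild type and 744 ± 67.0 in the mutant (log2 change 0.020, edgeR adjusted p = 0.852). In both genes, as in prg-2 and sago-2, the libraries of the genotypes overlapped. How any reads shared by ppw-1 and sago-2 were assigned is not stated in the labels, so their separate values are uncertain.

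Among RNA interference factors, the gene for the RNA-dependent RNA polymerase rrf-2 had 550 ± 4.76 CPM in wild type and 516 ± 39.5 in the mutant (log2 change −0.089 ± 0.0631). For ekl-1, a Tudor-domain protein that works with RNA-dependent RNA polymerases, means were 170.0 ± 5.72 and 157 ± 6.31 CPM (log2 change −0.11 ± 0.0667). The nuclear RNA interference genes nrde-1 and nrde-4 had log2 changes of −0.023 and −0.091. Small RNAs against eri-6 and eri-7, whose transcripts are joined by trans-splicing into 1 mRNA for a helicase, were 246 ± 11.4 and 37.5 ± 0.277 CPM in wild type and 243 ± 15.3 and 42.1 ± 1.36 in the mutant (log2 changes −0.011 and 0.17). The poly(U) polymerase gene cid-1 had a log2 change of −0.021. Adjusted p in edgeR ran from 0.234 for ekl-1 to 0.918 for eri-6.

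**Figure D4:**
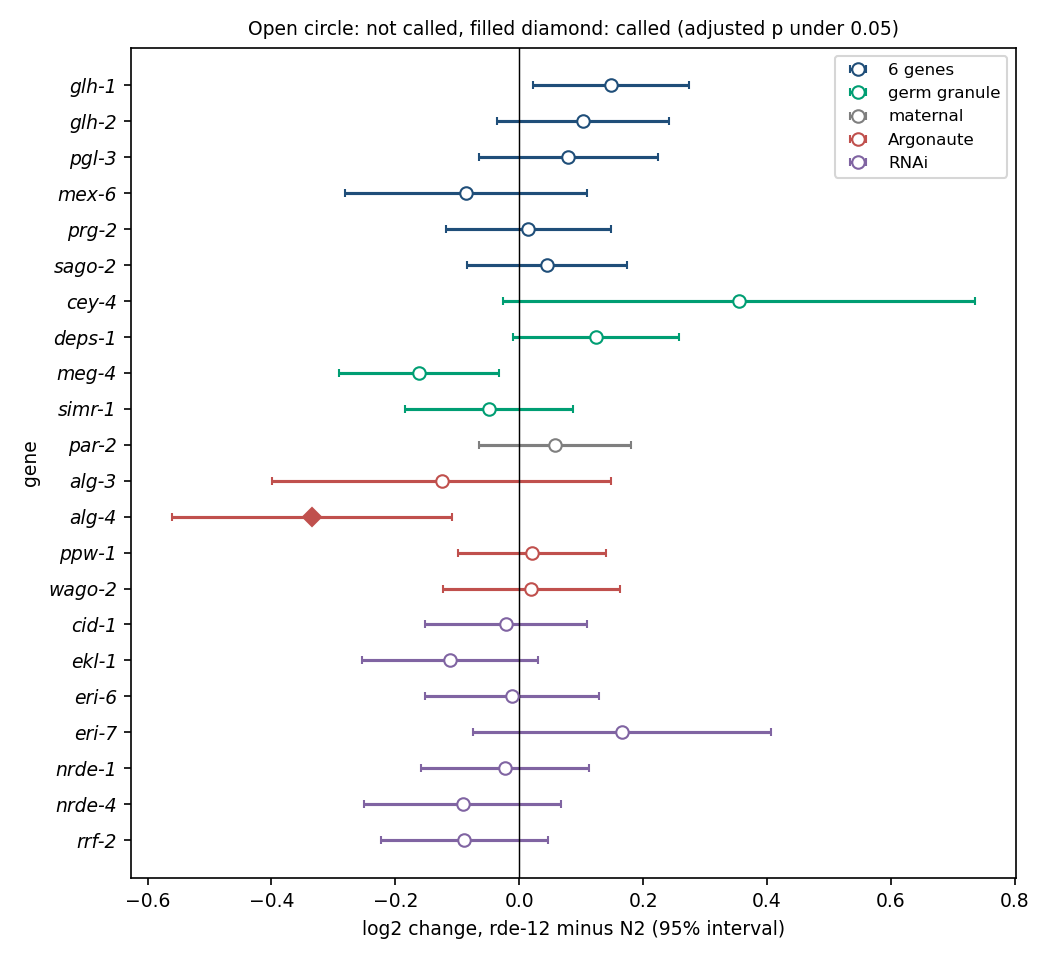
Log2 change from N2 to rde-12 with its 95% interval for the 6 genes and for the 16 other measured genes of the 4 lists. Open circles did not pass the test and the filled diamond, alg-4, did; the interval includes 0 for 5 of the 6 genes and for 14 of the 16.

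**Figure D5:**
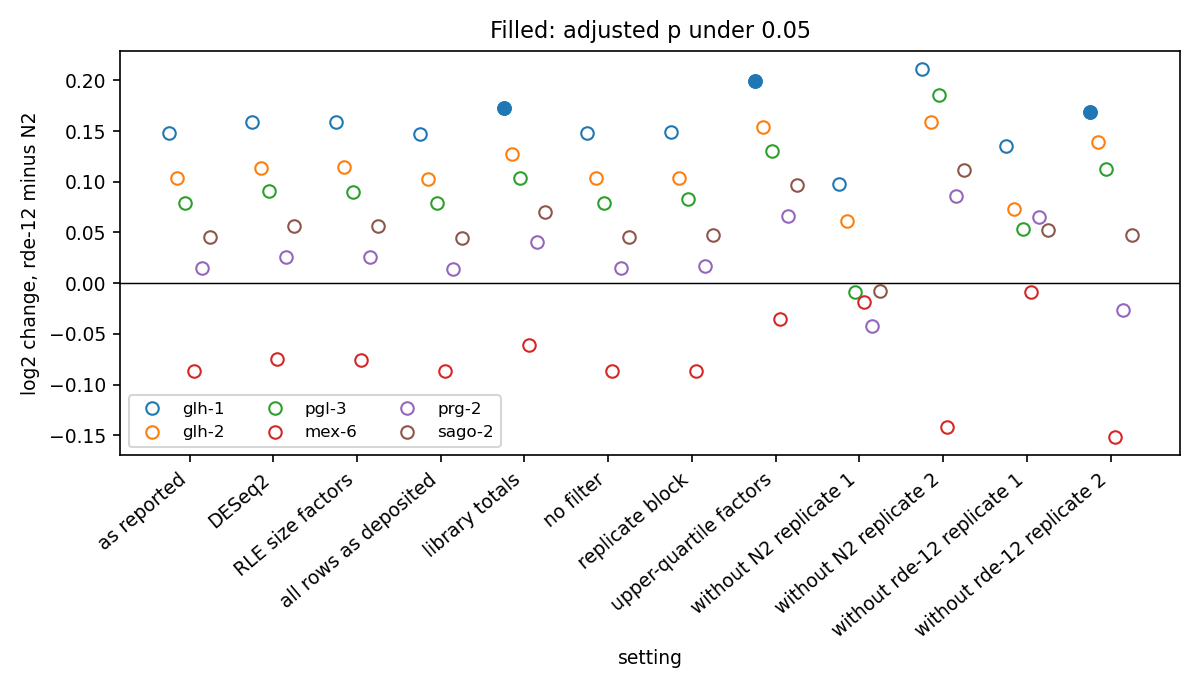
Log2 change of each of the 6 genes as reported and in 11 alternative settings. Filled points have an adjusted p under 0.05, and they occur 3 times, each for glh-1; pgl-3, prg-2 and sago-2 cross 0 without N2 replicate 1.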

How the data were processed

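Whole-number small RNA counts per gene were deposited by the authors for the 4 OP50 libraries, with no normalization. The submitters' processing notes name TopHat 1.4.1, with SAMtools and bedtools. Build, annotation, strand, treatment of multiple matches and gene selection are stated neither in the labels nor in the file headers. Of 1959 rows, 22 repeated another row and were dropped, which left 1937 genes, 1900 of them with RefSeq names.

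Groups follow the labels. The gene test was edgeR 4.0.16 (R 4.3.3, quasi-likelihood, TMM factors). Its filterByExpr step dropped 6 genes, and p-values were adjusted over 1931 genes (Benjamini-Hochberg, threshold 0.05). SE is the size of the log2 change over the root of F, and 95% intervals follow from it. Log2 CPM for distances had a prior count of 2. DESeq2 1.42.0 was an alternative. Named genes are the 6, every measured gene of the 4 pathway lists, the 2 nearest genes of each member and measured neighbours. Members and lists, including one of sperm genes, were chosen with earlier results of these data known. The sel-1 counts were not used. No sequences are shown.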

Additional observations from a re-analysis of the deposited data

How the results depend on the processing

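The alternatives were 11 settings fixed with the design, and all were run. Over the 6 genes, 59 of 66 log2 changes kept their sign and their side of the threshold, and for 5 of the 6 genes no setting gave a call. For glh-1 the log2 change ran from 0.098 to 0.21 and was called in 3 settings: unscaled library totals gave 0.17 (adjusted p = 0.0173), upper-quartile scaling gave 0.20 (0.0179), and dropping rde-12 replicate 2 gave 0.17 (0.0265). With library totals or upper-quartile factors the number of members that rose was 1 instead of 0. Over all genes 333 rose with library totals and 370 with upper-quartile factors, against 267 as reported. The median log2 change over all genes was 0.0049 with library totals and 0.031 with upper-quartile factors, against −0.020 as reported. Signs turned in values that were not called: without N2 replicate 1 for pgl-3 (−0.0088), prg-2 (−0.043) and sago-2 (−0.0074), and without rde-12 replicate 2 for prg-2 (−0.026). With libraries left out in turn, ranges were 0.098 to 0.21 for glh-1, 0.061 to 0.16 for glh-2, −0.15 to −0.0084 for mex-6, −0.0088 to 0.19 for pgl-3, −0.043 to 0.086 for prg-2 and −0.0074 to 0.11 for sago-2, and the number of the 6 that rose was 0 to 1. The germ granule list had 1 rise with library totals and 2 with upper-quartile factors, and 0 to 1 with a library left out. The Argonaute list had 0 falls with DESeq2, library totals, upper-quartile factors and the replicate block, and 0 to 1 with a library left out. The sperm list had 3 falls with DESeq2 and 3 to 7 with a library left out. Over all genes 157 fell with DESeq2 against 268, and 175 to 304 fell and 165 to 308 rose with a library left out. The glh-1 to glh-2 ratio was higher in rde-12 by 0.19, or by 0.12 to 0.25 with a library left out. The replicate numbers share no stated origin, and same-numbered deviations correlated at 0.024. With the replicate block 0 of the 6 genes were called, and the log2 change of glh-1 was 0.15 (adjusted p = 0.0904). The causes of these differences were not tested. Counts for mex-6, 384 to 454 per library, were the lowest of the 6.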
